A study of Homo sapiens with 2 samples.

Results

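Immediate early genes are the genes that cells switch on within minutes of a stimulus such as serum, without making new protein, and many of them encode transcription factors. The genes described here are IER2, IER5, FOS, FOSL1, JUN, JUNB, EGR1, ATF3, KLF6 and MYC, which are 10 of the 13017 genes listed. They were chosen by name, with earlier results of these same libraries in view, the low ratio of IER2 among them. All 10 passed a filter that asked for 1 FPKM or more on average over both libraries, as did 10925 genes in all. FPKM stands for fragments per kilobase of transcript, scaled to a common library size. Since the choice used them, the ratios between the libraries are a description, and none of them is tested.

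The RNA came from a human breast cancer line called 468 in the labels, which describe its morphology as epithelioid. The cells were grown in L15 medium with 10% FBS (fetal bovine serum). In the knockdown group the antisense RNA THAP7-AS1 had been targeted by transfected oligonucleotides sold as Smart Silencer. The other group was an si-NC control. Groups follow the genotype label, since the label for treatment is the same in both and gives the silencer. Collection took place at 48 h, and each group had 1 library, so that no value below has a replicate error. No measure of serum or growth factor stimulation at collection is given in the sources used here.

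As background, growth factors acting through the ERK kinases phosphorylate factors bound with SRF at serum response elements, and stress kinases of the JNK and p38 families act on JUN and ATF2. FOS and JUN proteins pair into the dimer AP-1, EGR1 and KLF6 are zinc finger factors, MYC pairs with MAX, and ATF3 is a stress-induced bZIP factor. The mRNAs are usually short-lived, and AU-rich elements in the 3' UTR are a known reason for this in FOS and MYC.

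The first data to show are the promoter letters, since these genes are known for shared control elements and their sequences do not depend on the measured ratios. The 120 bases before the annotated start were taken from RefSeq on build GRCh38.p14, 5′ to 3′ on the strand of the gene. Capitals mark a match to any of the motifs searched. The deposited tables were made on hg19, and no coordinates were carried between the builds.
IER2 (chr19:13150291-13150410, + strand): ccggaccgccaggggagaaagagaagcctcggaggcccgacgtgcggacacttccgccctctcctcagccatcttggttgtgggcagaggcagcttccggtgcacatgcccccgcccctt
IER5 (chr1:181088580-181088699, + strand): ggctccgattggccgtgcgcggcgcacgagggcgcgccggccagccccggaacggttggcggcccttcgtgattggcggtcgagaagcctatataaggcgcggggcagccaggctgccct
EGR1 (chr5:138465359-138465478, + strand): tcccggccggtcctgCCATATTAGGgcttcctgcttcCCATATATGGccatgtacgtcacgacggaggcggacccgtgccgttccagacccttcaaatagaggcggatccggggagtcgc
FOS (chr14:75278708-75278827, + strand): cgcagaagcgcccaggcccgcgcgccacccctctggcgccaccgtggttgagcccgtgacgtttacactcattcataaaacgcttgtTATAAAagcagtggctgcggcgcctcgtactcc
JUNB (chr19:12791366-12791485, + strand): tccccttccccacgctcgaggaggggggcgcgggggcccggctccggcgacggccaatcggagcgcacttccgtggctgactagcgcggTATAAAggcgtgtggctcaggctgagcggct

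The windows searched ran from 250 bases before to 50 bases after the annotated start, on both strands. They were found for 8 of the 10 genes, with 2 annotated starts for ATF3. Whether either of these ATF3 starts was in use in the cells was not tested. FOSL1 and MYC had no window. The serum response element was matched in 1 of the 8 genes, EGR1, at 2 places, from base -105 to -96 and from -83 to -74. The same element was matched in 1.10% of 12833 windows of genes that passed the filter, and in 4 of 49 other immediate early and serum-induced genes with a window. The known serum response element of FOS lies farther upstream than this window. The letters TATAAA were found in FOS at -33 to -28 and in JUNB at -31 to -26, the usual place of a TATA box, and in the second ATF3 window far from the start, at -230 to -225. They occurred in 5.86% of the windows of genes that passed the filter and in 18 of the 49 other genes.

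The EGR site GCGNGGGCG was matched in EGR1 and KLF6, in 15.1% of windows and in 17 of the 49 other genes. KLF6 also held the E-box CACGTG at -97 to -92, which 9.37% of windows and 7 of the 49 other genes hold. The cAMP response element TGACGTCA, the AP-1 site TGANTCA and the ETS site CCGGAAGT were matched in 0 of the 8 genes, and in 2.84%, 4.87% and 8.19% of windows of genes that passed the filter. IER2 and IER5 held no match to any motif searched. That says only that these letters are not in the windows. The IER5 bases shown above hold tatataa close to the start, which a search for TATAAA alone does not take. In the same way, the FOS bases shown above hold tgacgttt, which a search for the exact TGACGTCA does not take. The absence of an exact match is thus not the absence of a related element.

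The octamer TGACATCA, a variant of the AP-1 and cAMP elements known from the JUN promoter, was added to the search after the windows had been read. It stood in 3 of the 8 genes, in 1.43% of windows of genes that passed the filter and in 0 of 49 other immediate early genes. Since the octamer was picked from the windows of these 8 genes, the difference is no evidence of enrichment. Its surroundings are shown because they place the same letters at different distances from the start, at -67 to -60 in JUN, -123 to -116 in ATF3 and -172 to -165 in KLF6. Capitals mark the octamer.
JUN (chr1:58784096-58784125, - strand): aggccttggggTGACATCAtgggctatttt
ATF3 (chr1:212565273-212565302, + strand): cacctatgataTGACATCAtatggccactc
KLF6 (chr10:3785363-3785392, - strand): ttggccggagcTGACATCAtcggcgcgcag
These 3 genes did not share a direction in the libraries, with a log2 ratio of 0.18 for JUN, 0.66 for ATF3 and -0.74 for KLF6.

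**Figure D1:**
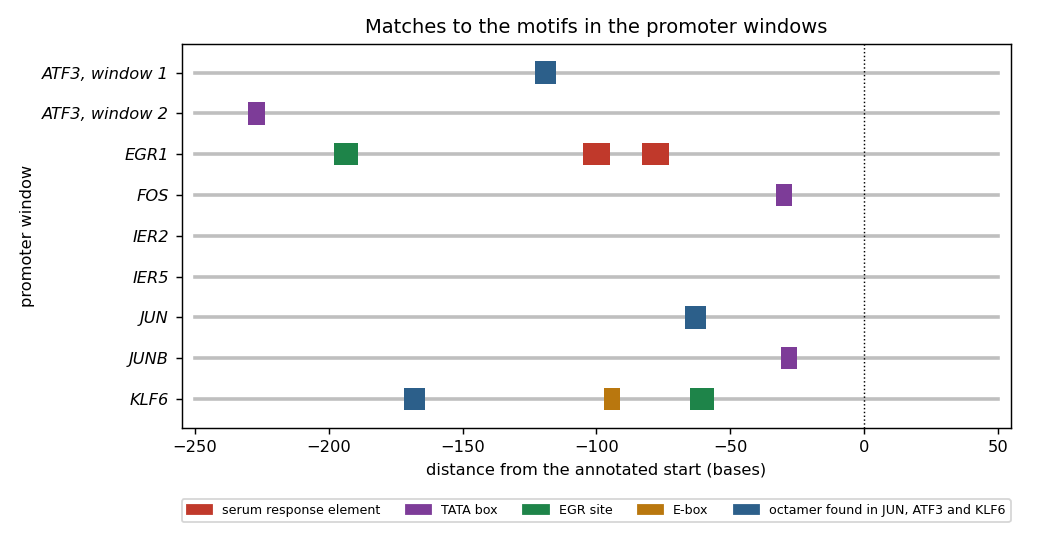
Matches to the motifs searched in the promoter windows of 8 genes, by distance in bases from the annotated start (dotted line); each coloured block is a match and each grey line a window. EGR1 holds both serum response elements, and FOS and JUNB each the TATA box letters TATAAA just before the start. IER2 and IER5 hold no match to the exact letters searched.

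Most of the genes are short with few exons. In the main annotated mRNA of GENCODE release 29, their median number of exons was 2.5 against 9 over 10832 genes that passed the filter, and the median gene span was 4341 bases against 31920.5. ATF3, which spans 55444 bases, was the exception in span. In the main mRNA, IER2, IER5, JUN and JUNB have a single exon, 4 of the 10 genes, whereas 2.20% of all genes do. For IER2 this mRNA has 2934 bases in a gene span of 4494, with 3 transcripts annotated. The median 3' UTR was 1136 bases, close to the 1083.5 bases of all genes.

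AU-rich letters were unevenly spread among them. The pentamer ATTTA, the core of AU-rich elements, was found in 9 of the 10 3' UTRs, against 69.6% of all genes and 90.2% of 51 other immediate early genes, with the highest count, 10, in IER5. MYC had 4 in a 3' UTR of 476 bases and FOS 5 in 806 bases. IER2 was the exception, with 0 in 1050 bases. The longer form, TTATTTA followed by 2 letters that are each A or T, is a known binding site of the decay factor TTP. It was found in FOS and IER5, in 19.6% of all genes and in 41.2% of those 51. The sites in FOS (base 646 of its 3' UTR) and IER5 (base 2567) are shown with capitals on the longer form.
FOS: tttttaatTTATTTATTaagatgga
IER5: gtcttcctTTATTTATTtatttatt
In IER5 the repeat runs on, giving 4 overlapping matches. The other 8 genes held no such match.

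IER2, a nuclear protein of the growth factor response, stood apart from the rest. It was at 2.77 FPKM under knockdown and at 33.9 FPKM in the control. The log2 ratio of FPKM + 1, knockdown over control, was -3.21, a 9.24-fold lower value on that scale, and adding 1 understates the change of low values. Of 10925 genes, 2 had a lower ratio, and both are identifiers without a symbol. IER2 was above 91.3% of all listed genes in the control and above 33.6% under knockdown. In the order of the 10 genes by level per length, it was the third in the control and the eighth under knockdown. In bulk RNA such as this, fewer cells expressing a gene and less RNA per cell cannot be told apart.

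Here and below, 2-fold and 1.5-fold are counted on the scale of FPKM + 1. At a difference of at least 2-fold, 1 of the 10 genes was taken, IER2, and 0 were higher. Over all genes 0.668% were at least 2-fold lower, 0.604% at least 2-fold higher and 1.27% apart in either direction. The 500 genes nearest to IER2 in mean level had a MAD-based SD of the log2 ratio (an SD reckoned from the median absolute deviation) of 0.21. This is a spread between genes, not between cultures. The ratio of IER2 was 15.6 times that spread, which does not measure how rare such a ratio is. A MAD takes little account of the outermost genes, and the ratio of IER2 was known when the gene was chosen.

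The depth behind the value of IER2 was estimated, since the tables hold no counts. The lowest values of genes with a single transcript put the value of 1 fragment near 89.9 FPKM × bases under knockdown and 91.4 in the control, over 13 and 10 genes. This comes to about 11100000 and 10900000 fragments, and the values of 1 fragment were sought in a window chosen after the values had been seen. At that depth IER2 rests on about 91 and 1088 fragments with its longest annotated mRNA, or 40 and 479 with its shortest. The counting error alone would be 0.16 on the log2 scale in the first case and 0.24 in the second, beside a log2 ratio without the added 1 of -3.61.

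**Figure D2:**
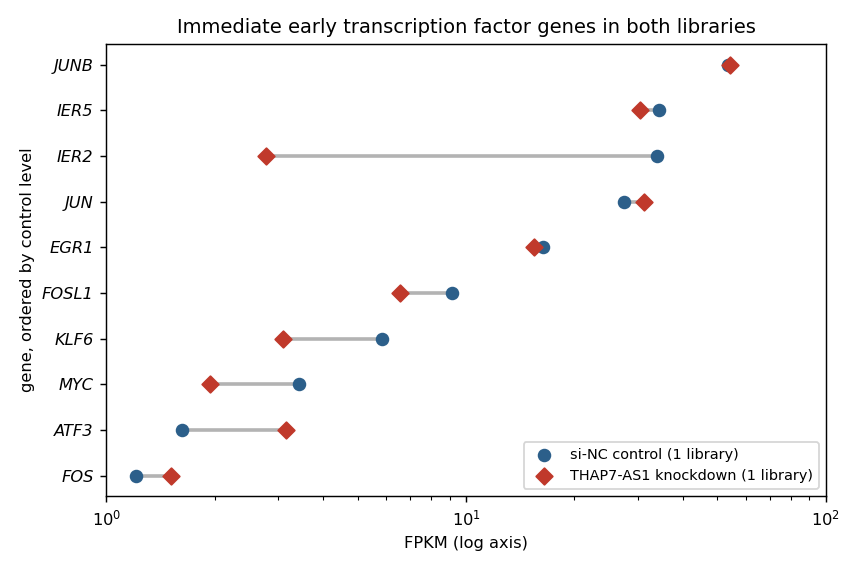
FPKM of the 10 genes under knockdown (red diamonds) and the control library (blue circles), 1 library each, on a log axis, ordered by control level. IER2 spans 2.77 to 33.9 FPKM, and the paired symbols of JUNB, IER5, JUN and EGR1 lie close together.

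The genes around IER2 on chromosome 19 did not share its ratio. STX10, a syntaxin gene on the opposite strand which lies 32 bases from the IER2 gene model, was at 37.7 FPKM under knockdown and 30.5 in the control. NACC1, the nearest gene on the same strand, was at 58.1 and 50.7 FPKM. The tRNA methyltransferase gene TRMT1 was at 10.4 and 6.42 FPKM, and the transcription factor gene NFIX at 29.4 and 37.0. LYL1, the fifth measured gene within 60 kb, was listed at 0 in both libraries. IER2 per unit of STX10 was 0.0737 under knockdown and 1.11 in the control, a comparison within each library that a single scaling factor per library leaves as it is.

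The exons of IER2 overlap those of an antisense gene, AC011446.2, which is not analysed here. The strandedness of the libraries is not given in the sources used here, so whether their reads were told apart is not known. The gene model holds 3 annotated transcripts, among which reads may be divided by estimate. The part of either in the ratio was not tested.

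Among genes averaging 5 FPKM or more, the 3 that lay nearest to IER2, by distance in the plane of the log2(FPKM + 1) values of the 2 libraries, were ENSG00000267952, SLC35F6 and NRSN2. ENSG00000267952, without a symbol, was at 2.14 and 33.2 FPKM, at a distance of 0.27. SLC35F6 was at 5.93 and 24.5 FPKM and NRSN2 at 2.58 and 16.0, at distances of 0.99 and 1.04. With 2 libraries such nearness is only a pair of like values.

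The other IER genes were nearly equal in the libraries. IER5, which promotes dephosphorylation of the heat shock factor HSF1, was at 30.4 FPKM under knockdown and 34.5 in the control, a log2 ratio of -0.17. IER5L, its relative, was at 15.4 and 18.0 FPKM, with a log2 ratio of -0.21. IER3, a survival gene, was the most abundant of the family at 233 and 199 FPKM, with a log2 ratio of 0.23. IER2 and IER5 stood at nearly equal levels in the control, where IER2 per unit of IER5 was 0.984. In the knockdown library it was 0.0911.

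Of the FOS genes, FOS, the founding AP-1 partner of JUN, was at 1.52 FPKM under knockdown and 1.21 in the control, the lowest level of the 10 genes in both. Its log2 ratio was 0.19, inside the spread of 0.23 for genes near its level, and it rests on about 36 and 29 fragments with its main annotated mRNA, or 11 and 8 with its shortest. FOSL1, which encodes FRA-1, was at 6.54 and 9.16 FPKM, which made a log2 ratio of -0.43, or 2.19 times the spread near its level. FOSL1 was the more abundant in each library, by level per length. Reckoned over the family, with FOSB and FOSL2 added to complete it, the FPKM sum was 20.6 under knockdown and 25.0 in the control. FOSL2 held 58.2% and 57.1% of it, FOSL1 31.8% and 36.6%, and FOS 7.37% and 4.83%.

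The JUN genes were high and nearly equal. JUN was at 31.1 FPKM under knockdown and 27.4 in the control, with a log2 ratio of 0.18. JUNB, often an attenuator of JUN, was the most abundant of the 10 genes in both libraries at 54.1 and 53.6 FPKM, with a log2 ratio of 0.01 whose sign changed with the scaling. The exons of JUNB overlap those of HOOK2 on the opposite strand, which was at 10.1 and 9.49 FPKM. With JUND, the sum of the family was 137 and 128 FPKM. JUNB made up 39.5% and 41.7% of it and JUN 22.7% and 21.4%, so that the makeup of the family was alike in the libraries.

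EGR1, a zinc finger factor with the paired serum response elements shown above, was at 15.5 FPKM under knockdown and 16.4 in the control. The log2 ratio was -0.08, inside the spread of 0.20 for genes near its level. The ratios of JUN, JUNB, IER5 and FOS were also smaller than the spread near their own levels, which with EGR1 makes 5 of the 10 genes. By its construction such a spread takes in most genes near a level, so this count sets no group apart. Counting error would be 0.087 for EGR1, at about 540 and 564 fragments.

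The stress-induced ATF3 was higher under knockdown, at 3.16 FPKM against 1.63, a log2 ratio of 0.66. That is 2.94 times the spread of 0.23 near its level. It rests on about 71 and 36 fragments with its main annotated mRNA, a counting error of 0.29, or 17 and 9 with its shortest, an error of 0.60. The log2 ratio without the added 1 was 0.96. KLF6, a zinc finger factor of the Krüppel family, was lower, at 3.10 FPKM against 5.84, a log2 ratio of -0.74 or 3.02 times its spread. MYC, the growth-promoting bHLH factor, was at 1.94 FPKM against 3.43, a log2 ratio of -0.59. That is about 51 and 89 fragments with its main annotated mRNA, or 7 and 13 with its shortest.

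At 1.5-fold, 3 of the 10 genes were lower under knockdown (IER2, KLF6 and MYC) and 1 was higher (ATF3). MYC lay just inside, at 1.51-fold, and FOSL1 just outside, at 1.35-fold. Over all genes 2.46% were at least 1.5-fold lower, 2.98% higher and 5.45% apart in either direction. KLF6, MYC and ATF3 are all among the less abundant of the 10, where the spread between genes is wider. The median log2 ratio of the 10 genes was -0.13, against 0.02 over all genes, with 6 below 0 and 4 above. Over all genes 46.9% were below 0, against which the counts of the lists that follow are to be read. Without IER2 the other 9 ran from -0.74 to 0.66 with a median of -0.08. Their FPKM summed to 147 under knockdown and 153 in the control. IER2 took 18.1% of the sum of the 10 genes in the control and 1.85% under knockdown.

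**Figure D3:**
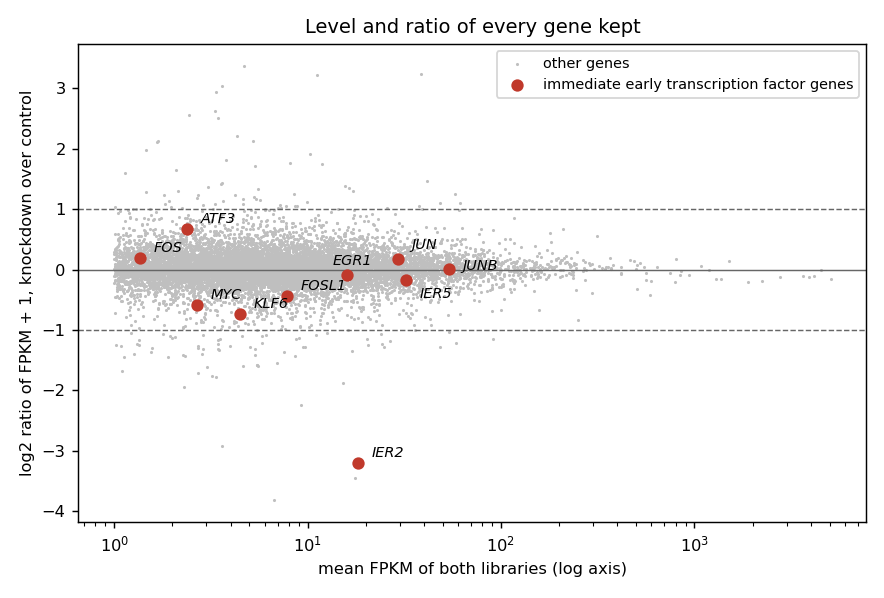
Log2 ratio of FPKM + 1 (knockdown over control) against the mean FPKM of both libraries (log axis) for 10925 genes in grey and the 10 genes in red; dashed lines mark 2-fold. IER2 lies at -3.21, far below the cloud, and the other 9 lie between the dashed lines.

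The comparison was widened to 63 other immediate early and serum-induced genes, of which 57 were measured and 51 passed the filter. None of the 51 was at least 2-fold apart on the scale of FPKM + 1, where 1.27% of all genes were. Of the 51, 27 were above 0 and 24 below, and the median log2 ratio was 0.02. ID1, an inhibitor of bHLH factors, was the lowest at 14.8 FPKM under knockdown against 24.0, and its relative ID2 the highest at 5.08 against 2.20. PPP1R15A, which directs a phosphatase to eIF2, was at 37.6 against 21.7 FPKM. The 3 just named were the ones at least 1.5-fold apart. The most abundant of the others were ACTB at 554 and 538 FPKM, IER3 at 233 and 199, CEBPB at 109 and 112 and HES1 at 55.6 and 63.3. The lowest ratio among the 51 was -0.66, against -3.21 for IER2. EGR2, EGR3, EGR4, NR4A3, EREG and PTGS2 are not analysed here.

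**Figure D4:**
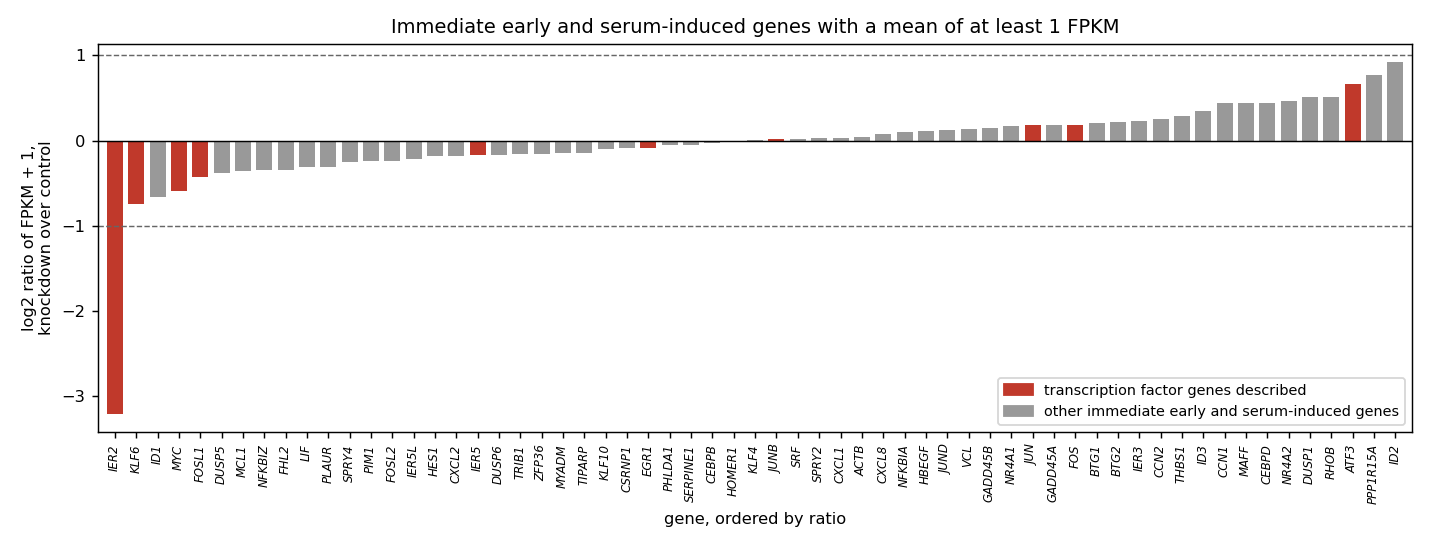
Log2 ratio of FPKM + 1 (knockdown over control) for 51 other immediate early and serum-induced genes (grey bars) and the 10 genes described (red bars), in order of ratio; dashed lines mark 2-fold. IER2 reaches -3.21, and every other bar lies between -0.74 and 0.93.

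Partners in the wider bZIP family of AP-1 and small MAF genes were spread around 0. Of 10 such genes, FOSL2 and JUND included and the FOS, FOSL1, JUN, JUNB and ATF3 genes left out, 6 were above 0 and 4 below, with a median of 0.17 and 0 at least 2-fold apart. The small MAF gene MAFF was at 10.3 FPKM under knockdown against 7.27, and BATF, better known from lymphocytes, at 21.3 against 16.3. ATF2, a target of JNK and p38 that pairs with JUN, was at 4.0 against 6.45 FPKM. JUND was at 51.9 and 47.3 FPKM, close to JUNB.

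Near EGR1, the corepressor gene NAB2, which EGR1 protein is known to induce, was at 6.62 FPKM under knockdown against 8.23. NAB1 was at 9.20 and 9.17 FPKM. The orphan receptor gene NR4A2, also an immediate early gene, was at 4.16 against 2.72 FPKM and NR4A1 at 1.12 against 0.885. All 4 lay within 1.5-fold on the scale of FPKM + 1.

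The other genes of the KLF family stayed close to equal. Of 11 besides KLF6, 5 were above 0 and 6 below, with a median of -0.02. KLF5, a factor of epithelial cells, was the most abundant at 49.0 and 47.6 FPKM. KLF3 was at 13.7 and 12.3 FPKM and KLF10 at 11.1 and 12.0. KLF11 had the largest difference after KLF6, at 9.64 against 12.1 FPKM, and KLF12 followed at 1.41 against 1.69. KLF6 alone of the 12 was at least 1.5-fold apart.

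In the network of MYC and MAX, 7 of 10 other genes were below 0, with a median of -0.04. MYCN, the paralogue of MYC better known from neural tumours, was at 4.73 FPKM under knockdown and 6.40 in the control, above MYC in both. MXD1, an antagonist that competes for MAX, was at 12.3 against 15.1 FPKM, MXI1 at 5.91 against 6.85, and MAX itself at 6.46 and 6.48. MLX, a relative of MAX, was at 16.7 and 15.9 FPKM. Among 26 known MYC targets 15 were above 0 and 11 below, and the median was 0.007. The nucleolar genes NPM1, at 347 and 346 FPKM, NCL, at 124 and 129, and NOP58, at 66.0 and 62.9, were nearly equal. NOLC1, also nucleolar, was at 56.3 against 34.4 FPKM and ODC1, of polyamine synthesis, at 35.9 against 27.1. PPAN, whose exons belong in part to a readthrough gene, was at 24.2 against 41.7 FPKM, and LDHA at 56.8 against 70.4.

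Upstream, genes of the ERK cascade lay below 0 in 11 of 18 cases, with a median of -0.14 and 0 at least 2-fold apart. NRAS was at 22.3 FPKM under knockdown against 28.1 and HRAS at 16.8 against 20.1. GRB2, the adaptor that links receptors to SOS, went the other way at 30.1 against 16.4 FPKM, as did the RSK kinase gene RPS6KA2 at 5.32 against 3.59. ARAF was nearly equal at 23.4 and 22.6 FPKM. The receptor gene EGFR, counted among the epithelial markers below, was at 258 against 336 FPKM.

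Genes of the JNK and p38 cascades had 11 of 16 above 0 and a median of 0.12. MAPK14, which encodes p38 alpha, was the 1 gene of the list at least 2-fold apart, at 6.67 FPKM under knockdown against 2.61. MAPK11, the beta form, was at 2.63 against 1.65 FPKM, while MAPK13, the delta form, was at 12.2 against 15.4. MAPK9, which encodes JNK2, was at 14.1 against 20.4 FPKM. The p38 substrate gene MAPKAPK2 was at 25.3 and 23.8 FPKM, and the kinase gene MAP3K7, which encodes TAK1, at 9.84 and 10.0.

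SRF, the factor that binds the serum response element, was at 10.1 FPKM under knockdown and 9.90 in the control. The ternary complex factor gene ELK3 was at 1.43 against 3.28 FPKM and ELK1 at 21.5 against 30.1, whereas ELK4 was at 5.71 against 4.92. MRTFB, which couples SRF to actin, was at 1.65 against 2.90 FPKM and MRTFA at 8.90 against 8.07. Of the CREB family and its coactivators, 7 of 8 were below 0, with a median of -0.14. CREBBP was at 5.79 against 8.28 FPKM, CREM at 2.40 against 3.21, and ATF1, the exception, at 10.8 against 8.33. EP300, the acetyltransferase most like CREBBP, was at 18.4 and 19.6 FPKM. The CREB coactivator genes CRTC1 and CRTC2 were at 10.4 and 10.5 FPKM and at 8.51 and 10.0 FPKM, in that order.

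ATF4 and CHOP act with ATF3 in the response to amino acid shortage. Of 13 genes in that list, ATF3 itself left out, 11 were above 0, with a median of 0.32. On the scale of FPKM + 1, 1 was at least 2-fold higher and 4 at least 1.5-fold. Over all genes the shares were 0.604% and 2.98%. DDIT3, which encodes CHOP, was at 8.78 FPKM under knockdown against 1.97, and CHAC1, a CHOP target, at 2.34 against 0.780. With 1 added, the log2 ratio of CHAC1 was 0.91, short of 2-fold. ATF4, the regulator of this response, was at 280 against 250 FPKM, and NUPR1 at 37.3 against 29.6. Higher values of such genes in these libraries were known when the list was drawn up, so the count is no independent evidence of a direction.

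Genes linked to IER5 through HSF1 lay below 0 in 13 of 19 cases, with a median of -0.07. DNAJB1, a cochaperone and HSF1 target, was at 45.4 FPKM under knockdown against 65.5, and CHORDC1 at 9.62 against 12.0. The most abundant chaperones were close to equal, with HSP90AB1 at 852 and 861 FPKM, HSP90AA1 at 376 and 368, HSPA8 at 306 and 287 and HSPB1 at 270 and 265. PPP2R2A, a regulatory subunit of the phosphatase PP2A with which IER5 is known to act, was at 6.57 against 5.03 FPKM.

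Of 24 genes that take part in the decay of AU-rich mRNAs, 15 were below 0, with a median of -0.09. The decapping enzyme gene DCP2 was the 1 gene at least 2-fold apart, at 3.09 FPKM under knockdown against 8.47. The deadenylase scaffold gene CNOT1 was at 36.1 against 45.2 FPKM, CNOT9 at 8.86 against 12.7 and CNOT7, a catalytic subunit, at 8.64 against 6.06. HNRNPD, the AU-rich binding protein AUF1, was at 43.3 against 58.7 FPKM, KHSRP at 63.7 against 57.3 and ZFP36L1 at 53.5 against 46.0. Over all genes that passed the filter, the 2122 with the longer AU-rich form had a median log2 ratio of -0.03 and the other 8710 of 0.03.

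Immediate early genes are also controlled by the release of paused RNA polymerase. Of 18 genes of that step 11 were above 0, with a median of 0.08. CCNT2, a cyclin of the kinase P-TEFb, was the 1 gene at least 2-fold apart, at 2.96 FPKM under knockdown against 0.680. CDK9, its kinase, was at 14.9 against 9.89 FPKM. MED26, a Mediator subunit that recruits elongation factors, was at 3.55 against 5.92 FPKM, while NELFE at 39.6 and 40.0, SUPT5H at 30.8 and 28.5 and MEPCE at 19.0 and 20.0 differed little.

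**Figure D5:**
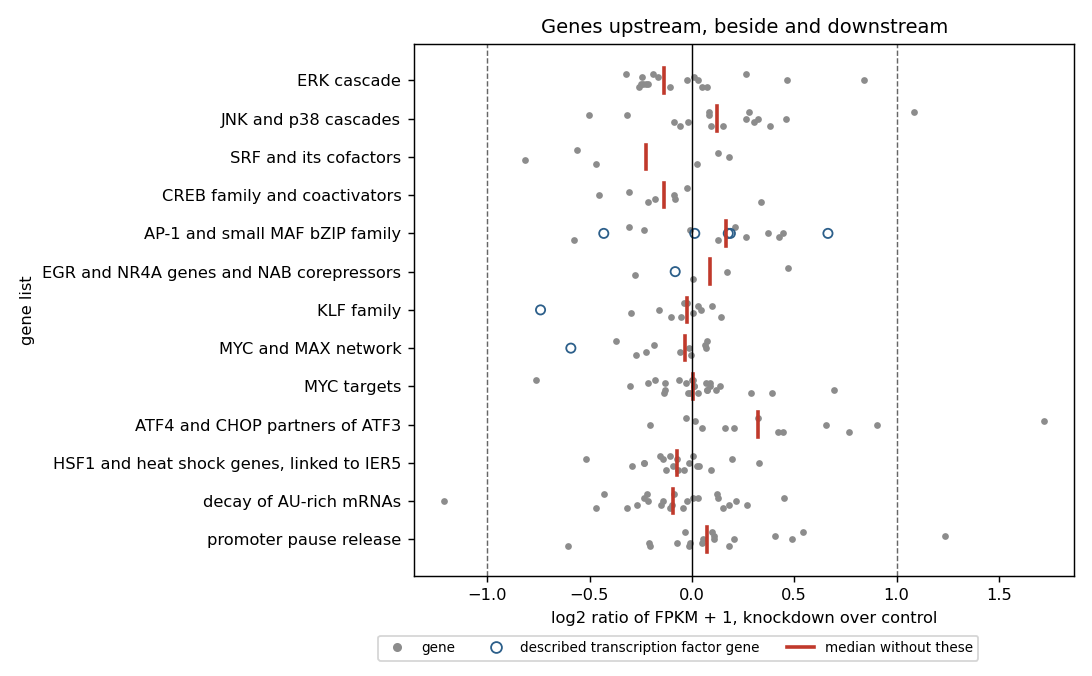
Log2 ratio of FPKM + 1 (knockdown over control) for the genes of 13 lists that passed the filter; grey points are genes, blue rings the described genes, red bars the list medians without them, and dashed lines 2-fold. The medians lie between -0.22 for SRF and its cofactors and 0.32 for the partners of ATF3.

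The label of breast cancer epithelial cells was checked against markers. Of 12 epithelial markers, 10 passed the filter, led by KRT19 at 1106 and 1057 FPKM, with EPCAM at 232 and 224 and KRT7 at 204 and 183. Those that did not pass were CLDN4, at 0.233 FPKM under knockdown and 0.303 in the control, and KRT6A, at 0.795 and 0.973. CDH1 was at 12.4 against 17.1 FPKM and KRT14 at 5.94 against 3.25. Of 8 immune markers 3 were measured, summing to 14.8 and 14.1 FPKM, mostly from CD14, with CD68 and LYZ the others. Fibroblast markers summed to 0.878 and 0.874 FPKM over 2 of 7 genes, and of 5 endothelial markers KDR was measured, at 1.07 and 1.15. The remaining markers are not analysed here. THAP7-AS1 is not analysed here, and its silencing could not be checked here.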

How the data were processed

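RNA sequencing of 2 libraries was analysed from 1 deposited table each. The authors deposited FPKM per gene, per the file headers. Tools listed in the submitters' processing notes are HISAT2 2.0.5, StringTie and cutadapt, with hg19 as the build. No source used here gives the annotation, strandedness or further versions. Of 13017 identifiers 12746 had a symbol.

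The filter kept 10925 genes averaging 1 FPKM or more, and log2((knockdown + 1)/(control + 1)) was computed. With 1 library per group a 2-fold rule of size took the place of a test. The calculation was tested on simulated data. The members and lists were chosen with earlier results of these data known. From each list the text names genes at least 2-fold apart, up to 4 with the highest mean FPKM and up to 3 with the largest ratio. FOSB, FOSL2 and the genes around IER2 were named for family or position, and CLDN4 and KRT6A as epithelial markers below the filter. GENCODE release 29 was used by identifier for transcripts and neighbours. The main mRNA was a complete coding transcript with a 3' UTR, by APPRIS rank and then length. Alternatives changed the pseudocount, filter, scaling and fold. Python 3.11.15, numpy 2.4.6, pandas 2.3.3 and matplotlib 3.10.9 were used. One gene that the rule names is not reported here.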

Additional observations from a re-analysis of the deposited data

How the results depend on the processing

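IER2 was the 1 gene of the 10 at least 2-fold apart under every pseudocount and scaling tried. At 1.5-fold the number was 4. The other filters could add no gene to this call, since all 10 genes pass the main filter. The filter at 5 FPKM kept 6 of them, IER2 included. The log2 ratio of IER2 ran from -3.56 with a pseudocount of 0.1 to -2.32 with a pseudocount of 5. Of 66 values of the 10 genes under an alternative, 60 moved by less than the spread of genes near their level. The values under another filter are among those 60 by construction, since a filter does not change a gene's own ratio. The 6 that moved by more were of IER2, ATF3, KLF6 and MYC, all under another pseudocount. The 3 that changed sign were all of JUNB, 0.01 as reported and between -0.04 and -0.0013 under other scalings. The median of the 10 genes, -0.13, was -0.42 as a mean, which IER2 sets, and -0.08 without IER2. Over all genes, the counts lower and higher in the knockdown library, 73 and 66, changed by setting. Adding 0.1 in place of 1 gave 126 and 140, adding 5 gave 14 and 19, keeping genes that average 5 FPKM or more gave 36 and 31, and calling at 1.5-fold gave 269 and 326. A stricter filter tests fewer genes, and a larger pseudocount shrinks low ratios by construction. Depth limits FOS, ATF3 and MYC most. No alternative measures the spread between cultures.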
